A study of Mus musculus with 10 samples.

Results

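The 10 genes described here are the MHC class II presentation genes Cd74, H2-Aa, H2-Ab1, H2-Eb1, H2-DMa, H2-DMb1, H2-Oa, Ciita, Ctss and Cd86, chosen by symbol for their known function, and all 10 were present among the 22815 symbols of the count table. They were followed in bulk RNA-seq of lower airway mast cells that had been sorted by flow cytometry from C57BL/6 mice of wild type genotype, aged 5 to 7 weeks. The mice had received intranasal saline (PBS, 20 µL), or the same volume with 3 µg of house dust mite extract (HDM) at 2 doses a week over 3 weeks. B7hi and B7low name the sorted populations. The labels do not spell out B7, which in lower airway mast cells is known as integrin β7, high on inducible and low on constitutive cells. With saline there were 2 libraries of B7hi and 2 of B7low cells, and with HDM 3 libraries of each. The labels do not say whether a library came from 1 animal or from a pool, so the p-values reflect variation among libraries that may in part be technical.

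MHC class II molecules are surface heterodimers that show peptides from engulfed proteins to CD4+ T cells. The α and β chains pair in the endoplasmic reticulum around the invariant chain, which is encoded by Cd74. In endosomes the cysteine protease cathepsin S (Ctss) trims the invariant chain, the H2-DM heterodimer exchanges the remaining fragment for antigenic peptide, and the H2-O heterodimer restrains H2-DM. Ciita is the coactivator that switches on most of these genes. B cells, dendritic cells and activated macrophages express the pathway constitutively or strongly, and T cells of mice express little of it. Resting mast cells are known for low class II levels. In C57BL/6 mice the E α chain is not made, so the E β chain encoded by H2-Eb1 has no partner at the surface.

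Total counts per library ran from 525983 to 1725818, so a count of 0 allows a level of up to 1.74 to 5.70 CPM (counts relative to the library's total, here 3 counts over it). Levels are CPM of the TMM-scaled library size. The 10 mast cell markers were detected in every library and summed to 13810 to 106100 CPM, in keeping with the labelled cell type. The summed levels of the other marker lists ran from 8.75 to 726 CPM for B cells, 4.42 to 179 CPM for T cells, 8.74 to 201 CPM for dendritic cells and 23.1 to 106 CPM for macrophages and monocytes. They ran from 59.5 to 424 CPM for endothelial cells, 10.5 to 187 CPM for epithelial cells, 43.6 to 128 CPM for innate lymphoid and NK cells, 3.13 to 31.8 CPM for eosinophils and neutrophils and 1154 to 2838 CPM for basophils. B7low HDM 1 held the highest B cell, dendritic cell and endothelial sums, and B7hi saline 2 the highest T cell sum. In bulk RNA, fewer cells of a type and less RNA per cell cannot be told apart.

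The 4 chain genes, Cd74, H2-Aa, H2-Ab1 and H2-Eb1, were high in a few libraries and near the detection limit in others of the same group. Cd74, the invariant chain, stood at 6.80 and 132 CPM in the B7hi saline libraries and at 15.7 and 53.5 CPM in the B7low saline libraries. With HDM it stood at 3.13, 43.1 and 131 CPM in B7hi and at 504, 435 and 62.6 CPM in B7low. B7hi saline 2, B7hi HDM 3 and B7low HDM 1 and 2 thus held the 4 highest values, and only B7low HDM lay wholly above its saline group. H2-Ab1, the A β chain, followed the same libraries. It was at 5.29 and 141 CPM in B7hi and 8.74 and 46.8 CPM in B7low with saline, and at 9.38, 19.6 and 131 CPM in B7hi and 424, 410 and 34.1 CPM in B7low with HDM. B7low HDM 3 fell within the range of the B7low saline libraries for this gene.

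H2-Aa, the A α chain that pairs with H2-Ab1, repeated this pattern. H2-Ab1, H2-Aa and H2-Eb1 lie side by side at chr17:34257689-34269419, chr17:34282744-34287823 and chr17:34305867-34316674 (GENCODE M21, GRCm38). It stood at 2.27 and 84.1 CPM in B7hi and 1.75 and 18.4 CPM in B7low with saline, and at 1.88, 3.91 and 84.2 CPM in B7hi and 313, 292 and 24.0 CPM in B7low with HDM. Every B7low HDM library lay above both B7low saline libraries, while the B7hi groups overlapped. H2-Eb1, the unpaired E β chain in this strain, was at 2.27 and 71.0 CPM in B7hi and 3.50 and 28.4 CPM in B7low with saline. With HDM it was at 1.25, 3.91 and 57.5 CPM in B7hi and at 201, 189 and 13.9 CPM in B7low. H2-Ea-ps, the inactive E α gene, had 0 counts in all 10 libraries. As a measure of likeness with no test, each chain gene's log2 CPM over the 10 libraries had a Pearson correlation of 0.96 (Cd74) to 0.99 (H2-Ab1) with the mean of the other 3.

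**Figure D1:**
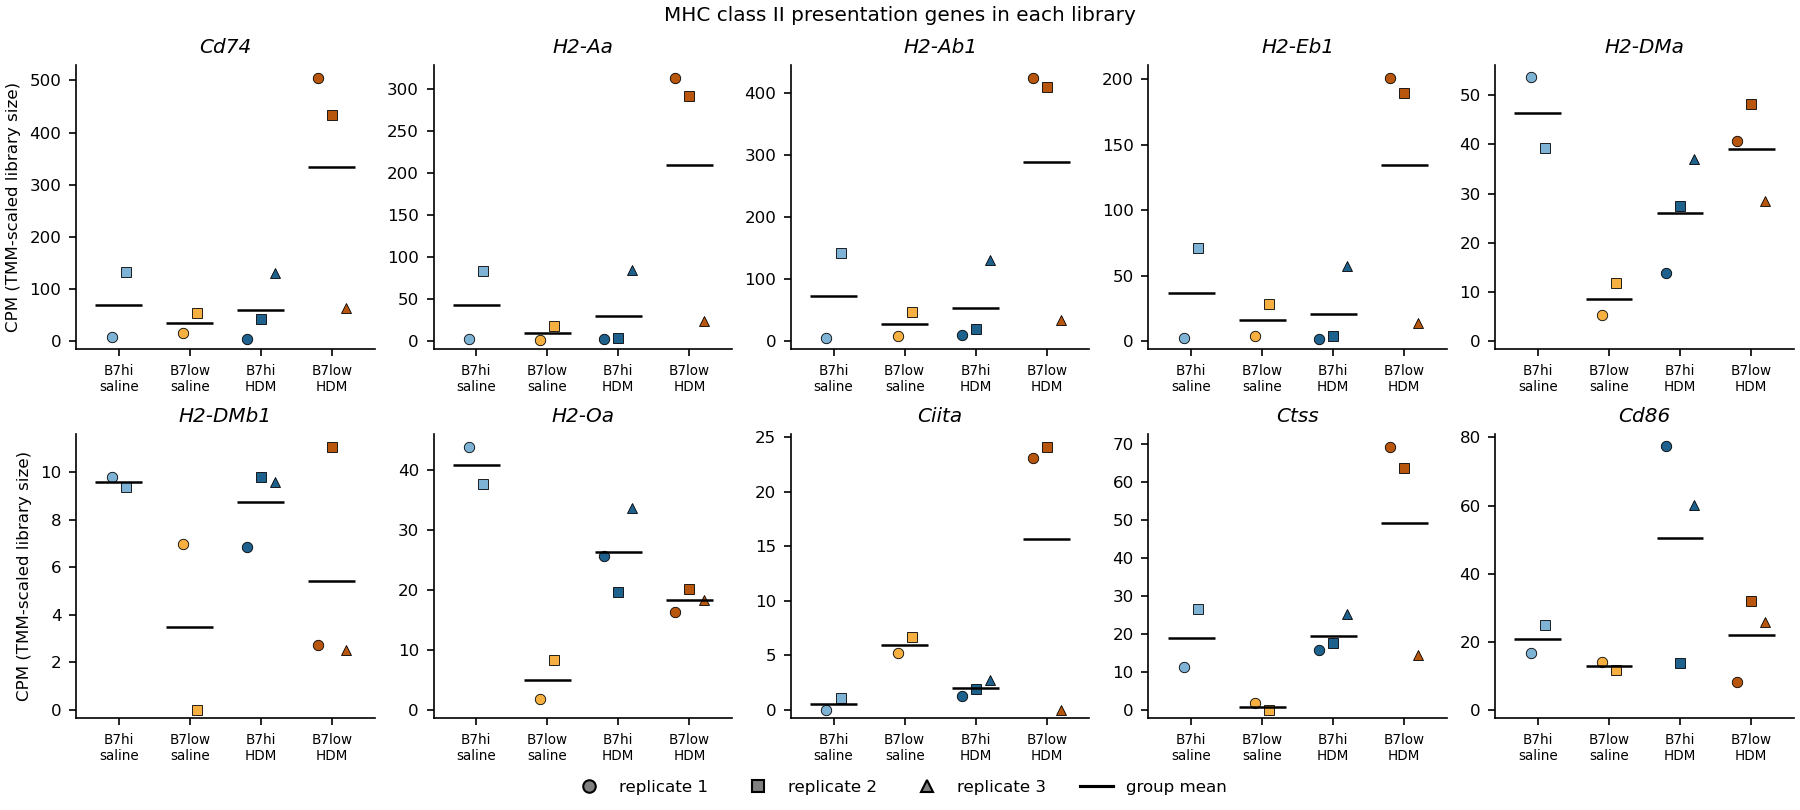
CPM of each of the 10 genes in every library, on linear axes that differ between panels, with 1 point per library, marker shape for the replicate number and a bar at the group mean. The 4 chain genes in the upper row stand at 189 CPM or more in B7low HDM 1 and 2 alone, whereas H2-Oa lies between 37.6 and 43.8 CPM in B7hi with saline and between 1.75 and 8.36 CPM in B7low with saline.

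None of the 4 chain genes passed the test in any comparison. For HDM against saline in B7low, the fitted log2 fold changes were 3.25 ± 1.88 for Cd74, 4.34 ± 2.40 for H2-Aa, 3.36 ± 2.00 for H2-Ab1 and 3.04 ± 2.14 for H2-Eb1 (approximate SE), with edgeR adjusted p of 0.64 to 0.72. For B7hi against B7low with HDM they lay between −2.67 ± 1.66 (H2-Aa) and −2.36 ± 1.52 (H2-Ab1), with adjusted p of 0.56 to 0.60. These differences did not exceed the spread between libraries of 1 group by this test. With saline the sign rested on 1 library. Cd74 was 1.02 in log2 fold change for B7hi against B7low, and −2.35 without B7hi saline 2, and the other 3 chains turned in the same way (from 1.22 to 2.11 with it, to −2.78 to −2.12 without it).

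The libraries with high chain levels also held lymphocyte transcripts, of different kinds. Cd79a and Cd79b encode the signalling chains of the B cell receptor, and Ms4a1 encodes CD20. Their sum was 373, 249 and 75.8 CPM in B7low HDM 1 to 3, 47.5 CPM in B7hi saline 2, and 3.75 to 17.6 CPM in the other 6 libraries. B7low HDM 1 and 2 held ranks 1 and 2 by both the chain sum (1442 and 1326 CPM) and the B cell sum. B7low HDM 3 ranked 6 of 10 by the chain sum (135 CPM) and 3 of 10 by the B cell sum. In B7hi HDM 3 the chains summed to 403 CPM, rank 4 of 10, and the B cell genes to 10.96 CPM, rank 8 of 10.

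The number of chain counts per B cell gene count therefore varied between libraries. It was 3.87 (1064 and 275 counts), 5.32 (2038 and 383) and 1.78 (213 and 120) in B7low HDM 1 to 3. It was 9.01 (820 and 91) in B7hi saline 2 and 36.8 (589 and 16) in B7hi HDM 3. The B cell sum was 47.5 CPM in B7hi saline 2 but 10.96 CPM in B7hi HDM 3. Both of these B7hi libraries stood apart by T cell transcripts, B7hi saline 2 in addition to its B cell transcripts. The 7 T cell markers of the table summed to 179 CPM in B7hi saline 2 and 138 CPM in B7hi HDM 3, against 4.42 to 37.2 CPM elsewhere. The kinase Lck was at 86.1 and 58.2 CPM in these libraries and the receptor chain Cd3g at 37.1 and 29.5 CPM. Not all 7 markers followed. Cd4 was highest in B7low HDM 1, at 13.6 CPM, and Cd5 was at 0 CPM in both B7hi libraries. Cd8a stood at 21.4 and 30.8 CPM there, but also at 25.1 CPM in B7low saline 2 and 23.5 CPM in B7hi HDM 2. The part of other cell types in the chain levels was not tested.

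**Figure D2:**
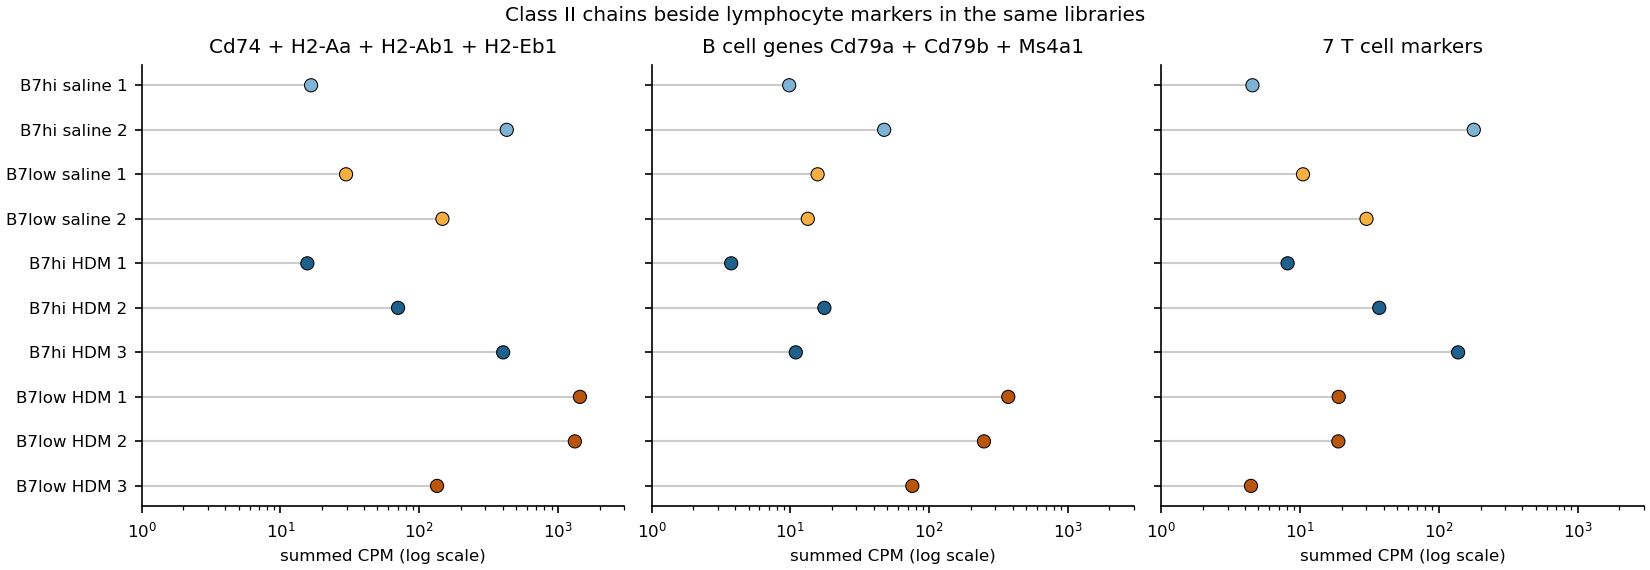
Summed CPM of the 4 chain genes, of the 3 B cell genes and of the 7 T cell markers in each of the 10 libraries, on log axes with the same range and with colours for the 4 groups. B7low HDM 1 and 2 are highest for chains and B cell genes, while B7hi saline 2 and B7hi HDM 3, with chain sums of 428 and 403 CPM, are highest for T cell markers.

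Genes of other presenting cells were unevenly detected. Of the 8 dendritic cell markers 0 to 6 were at 0 in a library, and the sum of 201 CPM in B7low HDM 1, where all 8 were detected, came mainly from Ccr7 at 165 CPM, a homing receptor that lymphocytes also carry. Flt3, the receptor for the dendritic cell growth factor, was at 4.07 CPM at most, in B7low HDM 1, and Zbtb46, a dendritic cell factor, at 6.80 CPM at most, in B7hi saline 1. Itgax, which encodes the integrin CD11c, ranged from 0 to 24.4 CPM, highest in B7hi HDM 1, and Siglech, a marker of plasmacytoid dendritic cells, from 0 to 13.7 CPM. Of the 12 macrophage and monocyte listed markers that were measured, 4 to 9 were at 0 in a library. C1qa and C1qb had 0 counts in all 10 libraries, and Csf1r, the macrophage colony-stimulating factor receptor, reached 5.02 CPM in B7low saline 2. Emr1, which encodes F4/80, stood at 8.13 and 9.76 CPM in B7low HDM 1 and 2, at 0 CPM in B7low HDM 3 and at 3.78 CPM in B7hi saline 1. Lyz2, another listed marker, had a different order, at 6.78, 0 and 6.32 CPM in B7low HDM 1 to 3. The chemokine receptor Ccr2 reached 76.3 CPM, in B7hi HDM 2. The part of these cells in the chain levels was not tested.

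The composition of the chain counts was alike in the 4 libraries with over 500 of them. Cd74 made up 30.7% of the 4 genes' counts in B7hi saline 2 (exact binomial 95% interval 27.6 to 34.0), 32.4% in B7hi HDM 3 (28.7 to 36.4), 35.0% in B7low HDM 1 (32.1 to 37.9) and 32.8% in B7low HDM 2 (30.7 to 34.9). In B7low HDM 3 the share was 46.5% (39.6 to 53.4), above these 4 intervals. So was that of B7hi HDM 2, at 61.1% (43.5 to 76.9) from 36 chain counts. The intervals of the remaining libraries, with 17 to 88 chain counts, overlapped with those of the 4. The intervals cover counting error only.

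Proximal promoters of class II genes carry an X box and a Y box, which bind RFX and NF-Y complexes that recruit Ciita. They are shown because they are the known point of shared control of the chain and loading genes. RefSeq promoter windows on GRCm38.p6, from 250 bases before to 50 after the start, were held for 6 of the 10 genes: H2-Aa, H2-Eb1, H2-DMa (with 2 starts), H2-DMb1, H2-Oa and Ctss. The motifs searched on both strands were TGATTGG for the Y box core and TAGNAAC for the X box core, which do not overlap in these windows. The 120 bases before the start are printed 5′ to 3′ on the gene's strand, with motif matches in capitals.
H2-Eb1 (chr17:34305747-34305866, + strand): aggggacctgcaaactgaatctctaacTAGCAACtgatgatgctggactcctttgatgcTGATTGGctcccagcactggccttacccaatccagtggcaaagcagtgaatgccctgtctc
H2-DMb1 (chr17:34153071-34153190, + strand): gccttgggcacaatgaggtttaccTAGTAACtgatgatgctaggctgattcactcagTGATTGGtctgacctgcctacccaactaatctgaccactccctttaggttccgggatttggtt
H2-Aa (chr17:34287824-34287943, - strand): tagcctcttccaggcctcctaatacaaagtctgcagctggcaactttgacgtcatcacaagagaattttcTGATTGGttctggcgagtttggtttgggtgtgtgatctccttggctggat
H2-Oa (chr17:34092259-34092378, + strand): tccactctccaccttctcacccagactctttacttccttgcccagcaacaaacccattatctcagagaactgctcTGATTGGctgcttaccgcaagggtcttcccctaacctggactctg

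The Y motif began 45 (H2-Oa), 50 (H2-Aa), 61 (H2-Eb1) and 63 (H2-DMb1) bases before the start. Of all 32851 promoter windows of the same length, 7.82% held the Y motif and 11.4% the X motif. H2-Eb1 and H2-DMb1 also held the X motif, on the same strand and within 50 bases upstream of the Y motif, as did H2-Ob. That arrangement occurred in 27 windows in all (0.0822%). The windows of H2-DMa and Ctss held neither motif. Only matches to the motifs as written were counted, so a window without a match may still hold a variant of either box. Whether H2-Aa and H2-Oa have a variant X box, or H2-DMa and Ctss a variant of either box, was not tested. Of the 3 genes with the motif pair, H2-Eb1 had a Pearson correlation of 0.99 with the mean of the other chains, H2-Ob one of 0.70 with the chain mean, and H2-DMb1, with few and uncertain counts, one of −0.09.

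**Figure D3:**
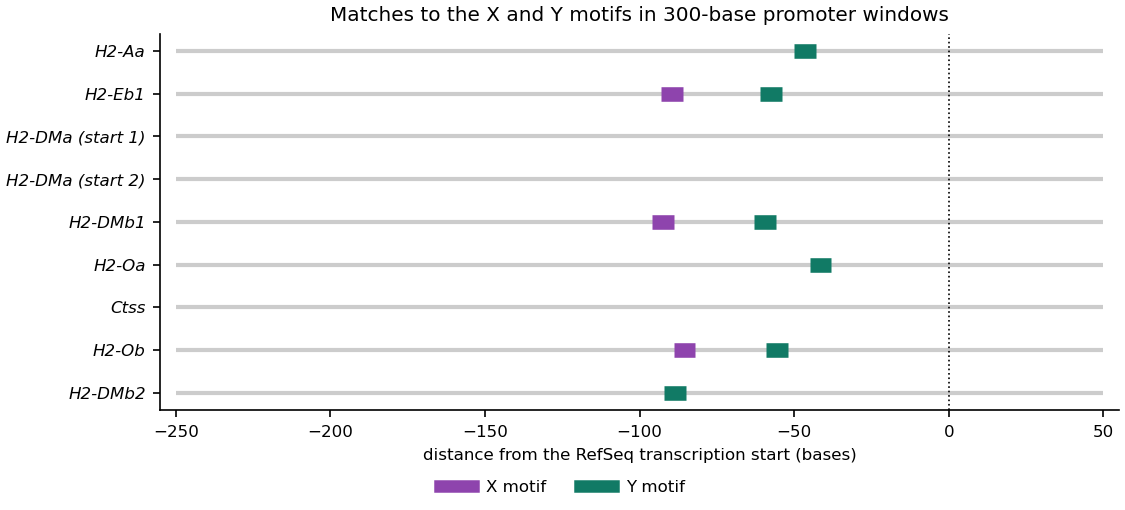
Positions of X and Y motif matches in RefSeq promoter windows of 300 bases, with the distance from the transcription start on the horizontal axis and 1 line per start for H2-Aa, H2-Eb1, H2-DMa, H2-DMb1, H2-Oa and Ctss and for H2-Ob and H2-DMb2. The pair of motifs is present in H2-Eb1, H2-DMb1 and H2-Ob, and the lines of H2-DMa and Ctss are empty.

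The peptide loading genes H2-Oa and H2-DMa were higher in B7hi than in B7low cells with saline. H2-Oa, the α chain of H2-O, lies at chr17:34092340-34095234 (GENCODE M21, GRCm38). It stood at 43.8 and 37.6 CPM in B7hi saline and at 1.75 and 8.36 CPM in B7low saline, a log2 fold change of 2.97 ± 0.64 (edgeR adjusted p = 0.0098). With HDM it stood at 25.6, 19.6 and 33.6 CPM in B7hi and 16.3, 20.2 and 18.3 CPM in B7low. The saline groups were thus far apart, and the HDM groups lay between them and overlapped. H2-DMa, the α chain of H2-DM (chr17:34119541-34139101), was at 53.7 and 39.2 CPM in B7hi and 5.25 and 11.7 CPM in B7low with saline (2.43 ± 0.61, edgeR adjusted p = 0.025). With HDM it was at 13.8, 27.4 and 37.0 CPM in B7hi and at 40.7, 48.1 and 28.4 CPM in B7low.

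For H2-Oa, the level in B7hi saline 1 (43.8 CPM) exceeded that in B7hi saline 2 (37.6 CPM), although the chain sums lay the other way (16.6 and 428 CPM). The call for H2-Oa did not hold with limma-voom (adjusted p = 0.125), nor when B7hi saline 1 (0.067) or B7low saline 1 (0.066) was left out. For H2-DMa it was lost without B7hi saline 1 (0.14), B7hi saline 2 (0.054) or B7low saline 1 (0.12), and with limma-voom (0.20). The log2 fold changes over all alternatives stayed between 2.31 and 4.48 for H2-Oa and between 2.01 and 3.14 for H2-DMa.

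Both genes share exons with a neighbour on the opposite strand, whose reads cannot be told apart from theirs without strand. Of the possible 25-base reads of H2-DMa, 9.49% occur in Brd2, which stood at 209 and 210 CPM in B7hi and 245 and 244 CPM in B7low with saline (log2 fold change −0.22, edgeR adjusted p = 0.71). Of those of H2-Oa, 19.2% occur in BC051537, which had 0 to 3 counts in each saline library.

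The remaining loading genes were partly measured. H2-DMb1, the β chain of H2-DM, had 0 to 18 counts per library, and 35.1% of its possible 25-base reads also occur in its neighbour H2-DMb2, so that its counts are uncertain. It stood at 9.82 and 9.40 CPM in B7hi and 6.99 and 0 CPM in B7low with saline, and at 6.88, 9.79 and 9.59 CPM in B7hi and 2.71, 11.1 and 2.53 CPM in B7low with HDM. The groups with HDM overlapped and no comparison passed. H2-DMb2 had 0 to 5 counts and was not tested. H2-Ob, the β chain of H2-O, stood at 38.5 and 48.6 CPM in B7hi and 12.2 and 11.7 CPM in B7low with saline (1.86 ± 0.64, edgeR adjusted p = 0.093). With HDM it was at 19.4, 21.5 and 30.1 CPM in B7hi and 106, 57.9 and 22.7 CPM in B7low. Its order in B7low HDM was that of the B cell, chain, dendritic cell and endothelial sums alike.

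Ciita, the class II transactivator (chr16:10480059-10528418), was scarce. It had 0 and 2 counts in B7hi and 3 and 4 counts in B7low with saline, which is 0 and 1.04 CPM and 5.25 and 6.69 CPM. The ratio was 9.69-fold in favour of B7low, with an exact 95% counting interval of 1.85 to 95.6, and did not pass the test (edgeR adjusted p = 0.305). With HDM it stood at 1.25, 1.96 and 2.74 CPM in B7hi and at 23.0, 24.1 and 0 CPM in B7low (−2.90 ± 1.21, edgeR adjusted p = 0.28). The B7low HDM library without a Ciita count had 62.6 CPM of Cd74, and the 2 libraries with the highest Cd74 had the highest Ciita. In B7hi saline 2 and B7hi HDM 3, with Cd74 at 132 and 131 CPM, Ciita had 2 and 4 counts.

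Ctss, the protease that acts on the invariant chain (chr3:95526786-95556403), was nearly absent from B7low cells with saline. The B7hi saline libraries held 11.3 and 26.6 CPM. The B7low saline libraries held 1.75 and 0 CPM, from 1 count in all. The ratio was 23.8-fold (exact 95% counting interval 4.13 to 956) and passed the test (edgeR adjusted p = 0.042). With HDM it stood at 15.6, 17.6 and 25.3 CPM in B7hi and at 69.1, 63.7 and 14.5 CPM in B7low. All 3 B7low HDM libraries were above both B7low saline libraries, a ratio of 52.2-fold (9.24 to 2072) that did not pass (edgeR adjusted p = 0.10). The saline call did not hold with DESeq2 (0.066) or limma-voom (0.51). Leaving out 1 library ended it for B7low saline 2 (0.22), B7hi saline 2 (0.20), B7low saline 1 (0.094), B7low HDM 2 (0.059), B7hi HDM 2 (0.056) and B7hi HDM 3 (0.052). Without B7low HDM 3 the HDM difference in B7low did pass (0.037), and the 2 libraries then left in that group were those with the most B cell transcripts.

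Cd86, a costimulatory ligand for CD28 on T cells (chr16:36603869-36666081), was highest in 2 of the 3 B7hi HDM libraries. It stood at 16.6 and 25.1 CPM in B7hi and 14.0 and 11.7 CPM in B7low with saline, and at 77.5, 13.7 and 60.3 CPM in B7hi and 8.13, 31.9 and 25.9 CPM in B7low with HDM. B7hi HDM 2 thus lay below every B7hi saline library, and the HDM groups overlapped. The log2 fold change was 1.32 ± 0.60 for HDM against saline in B7hi (edgeR adjusted p = 1.00, unadjusted p = 0.043) and B7hi was 2.30-fold above B7low with HDM (edgeR adjusted p = 0.32). B7hi HDM 1, with the highest Cd86, had the lowest chain and B cell sums of all libraries (15.6 and 3.75 CPM). Its paralog Cd80 had 1 count in the 10 libraries together.

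Per kilobase of exon, the order of the mean levels differed between groups. In B7low cells with HDM Cd74 was highest at 199 ± 141 CPM per kb (SD, n = 3), followed by H2-Ab1 (113 ± 86.1), H2-Eb1 (69.2 ± 53.9), H2-Aa (55.2 ± 42.4) and Ctss (36.2 ± 22.2). H2-Oa (12.97 ± 1.39), H2-DMa (11.3 ± 2.88), Cd86 (6.00 ± 3.37), H2-DMb1 (3.23 ± 2.90) and Ciita (1.65 ± 1.43) came after. In B7hi cells with saline Cd74 (41.2 ± 52.5, SD, n = 2) was followed by H2-Oa (28.9 ± 3.14) and H2-Ab1 (28.6 ± 37.5). These means join 2 unlike libraries. In B7hi saline 1 H2-Oa stood at 43.8 CPM, above Cd74 (6.80) and H2-Ab1 (5.29). In B7hi saline 2 it stood at 37.6 CPM, below Cd74 (132) and H2-Ab1 (141). In B7low with HDM, neighbours in this order differed by less than the larger of their SDs, except Ctss and H2-Oa, and H2-DMa and Cd86. In B7hi with saline, the means of Cd74, H2-Oa and H2-Ab1 did so too. These SDs are between libraries, and all genes share the libraries, so they do not measure the order within a library. Cd74 exceeded H2-Ab1 in each B7low HDM library (504, 435 and 62.6 against 424, 410 and 34.1 CPM), over a shorter exon length (1.68 against 2.57 kb).

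Over the 5 comparisons, calls among the 10 genes were made with saline alone. All 10 passed the filter on low counts. For B7hi against B7low with saline 3 of 10 were higher (H2-Oa, H2-DMa and Ctss) and 0 lower, where 6.54% of the 10533 tested genes were called, 2.91% higher and 3.64% lower. The median log2 fold change was 1.43, against 0.03 over all tested genes. The libraries' ranges did not overlap for 5 of 10 in the higher direction (28.5% of all genes) and for Ciita in the lower (23.4%), 51.9% in either. For B7hi against B7low with HDM the count was 0 with edgeR, DESeq2 and limma-voom. By edgeR, 2.84% of all genes were called, 0.693% higher and 2.15% lower. An unadjusted edgeR p under 0.05 was met by 3 of the 10 genes and by 1433 of the 10533 tested genes. The median was −1.83 against 0.03, and all 10 ranges overlapped, whereas 20.5% of all genes had ranges that did not (9.76% higher, 10.7% lower).

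**Figure D4:**
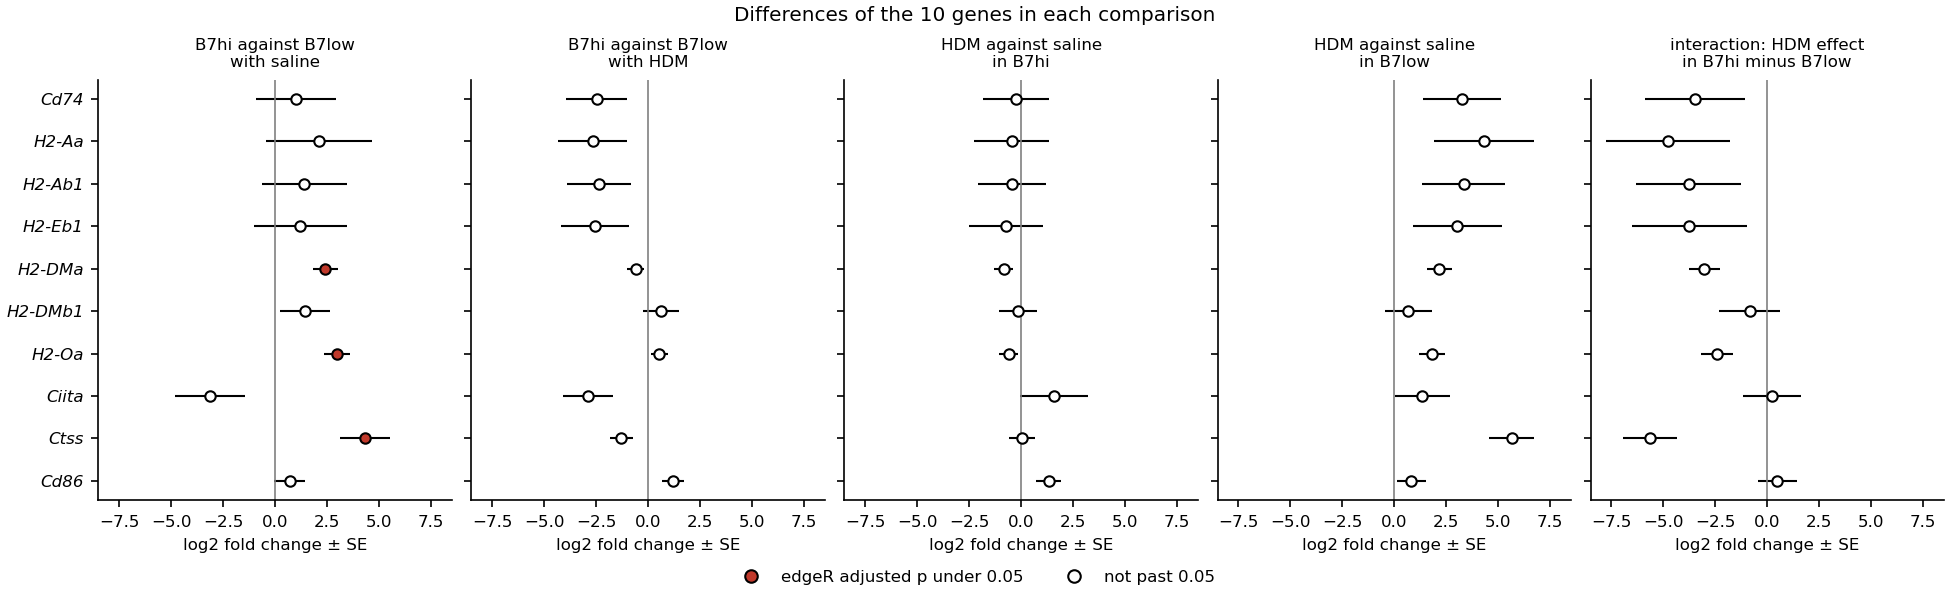
Fitted log2 fold change with its approximate SE for the 10 genes in the 5 comparisons, on a common linear axis, with filled points for edgeR adjusted p under 0.05. The 3 filled points, H2-DMa, H2-Oa and Ctss, are all in the comparison of B7hi and B7low with saline, and the SE of H2-Aa is the widest in each comparison.

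HDM against saline gave 0 calls among the 10 genes with edgeR, DESeq2 and limma-voom in B7hi and in B7low, and edgeR called 0.00949% of all genes in each. In B7low all 10 log2 fold changes were positive, with a median of 2.61 against 0.03 over all genes. An unadjusted edgeR p under 0.05 was met by 3 of the 10 genes and by 956 of the 10533 tested genes. The ranges did not overlap for 5 of 10, namely Cd74, H2-Aa, H2-DMa, H2-Oa and Ctss, all higher with HDM, against 13.2% of all genes higher, 10.7% lower and 23.9% in either direction. In B7hi the median was −0.33, with 1 unadjusted p under 0.05, a level that 435 of the 10533 tested genes met. H2-DMa and H2-Oa were below the saline range (10.4% of all genes) and Ciita above it (10.2%), with 20.6% of all genes outside it in either direction. These comparisons share libraries with those of B7hi and B7low, so their values do not stand alone.

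Whether the response to HDM differed between the populations was tested by the interaction (the B7hi response less the B7low response). None of the 10 genes passed with edgeR, DESeq2 or limma-voom, and edgeR called 0% of all tested genes, with 901 at an unadjusted p under 0.05, among them 3 of the 10 genes. The nearest were Ctss (−5.63 ± 1.31) and H2-DMa (−3.02 ± 0.74), both at edgeR adjusted p = 0.22, and H2-Oa (−2.43 ± 0.77, 0.40). With no count filter Ctss (2.1e-04) and H2-DMa (0.0077) passed.

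A further fit left out the 4 libraries with over 100 CPM of B cell or of T cell markers. These were B7hi saline 2, B7hi HDM 3, B7low HDM 1 and B7low HDM 2. Of the 6 libraries left, B7hi saline 1 was the only one of its group, and so was B7low HDM 3. Every comparison therefore had a group of a single library, and only effect sizes are given. H2-DMb1 and Ciita no longer passed the count filter. The saline log2 fold change of H2-Oa went from 2.97 to 3.05, that of H2-DMa from 2.43 to 2.61 and that of Ctss from 4.33 to 3.52. Cd74 for HDM against saline in B7low went from 3.25 to 0.82, H2-Ab1 from 3.36 to 0.26 and H2-Eb1 from 3.04 to −0.23. The 4 libraries left out also had the 4 highest chain sums (1442, 1326, 428 and 403 CPM). Lower chain levels in B7low with HDM therefore follow from the choice itself, whatever the source of the RNA. B7low HDM 3, which was kept, held 91.6 CPM of B cell markers, just under the cut. This choice of libraries was made after the data were seen, and the cause of these shifts was not tested.

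Of 22 other class II pathway genes in the table, 15 were tested, and 1 was called in 1 comparison. The lysosomal protease Ctsd was lower in B7hi with saline, at 528 and 586 CPM against 1537 and 1338 CPM (−1.37 ± 0.33, edgeR adjusted p = 0.020). The call was lost without B7hi saline 1 (0.18), B7hi saline 2 (0.094) or B7low saline 1 (0.087). Ifi30, Pdcd1lg2 and Cd40 are named after their values were seen. Ifi30, the thiol reductase of endosomes, had 0 CPM in both B7low saline libraries and 10.8, 37.7 and 6.32 CPM in B7low with HDM (edgeR adjusted p = 0.31). Pdcd1lg2, which encodes the PD-1 ligand PD-L2, stood at 155, 110 and 78.8 CPM in B7hi HDM and 35.2, 24.7 and 44.2 CPM in B7low HDM (1.72 ± 0.46, edgeR adjusted p = 0.067). The Ciita partners Rfx5, Rfxank, Nfya, Nfyb and Nfyc were tested and none passed. Cd40 was detected in B7low HDM 1 and 2 at 6.78 and 9.76 CPM, in B7hi saline 1 at 0.756 CPM, and in no other library. H2-Eb2, a relative of H2-Eb1, had 0 to 8 counts per library.

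Of the MHC class I genes, B2m, H2-K1 and H2-D1 were abundant throughout, whereas Nlrc5 had group means of 8.51 to 19.1 CPM. B2m, the class I light chain, ranged between group means of 1916 and 2396 CPM with no call. Of 9 tested class I genes, only the immunoproteasome subunit Psmb9 was called. It was higher in B7hi with saline, at 63.5 and 67.3 CPM against 12.2 and 18.4 CPM (2.08 ± 0.45, edgeR adjusted p = 0.011). This did not hold with limma-voom (adjusted p = 0.075). The call was lost without B7hi saline 1 (0.057), B7hi saline 2 (0.061) or B7low saline 1 (0.066).

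Genes of the interferon γ axis, which induces Ciita in many cell types, moved in both directions with saline. Of 9 tested, the receptor chain Ifngr1 (438 and 435 against 180 and 102 CPM; 1.63 ± 0.32, edgeR adjusted p = 0.0051) and the factor Irf1 (1.94 ± 0.53, 0.047) were higher in B7hi. The second receptor chain Ifngr2 was lower, at 16.6 and 17.2 against 69.9 and 55.2 CPM (−1.88 ± 0.47, 0.025). The Irf1 call did not hold with limma-voom (adjusted p = 0.28). Nor did it hold with edgeR on DESeq2 size factors (0.060) or on only the 2 groups (0.055). The Ifngr1 call was lost without B7low saline 2 (0.052), that of Ifngr2 without B7hi saline 1 (0.18), B7hi saline 2 (0.14) or B7low saline 1 (0.099), and that of Irf1 in 7 of the 10 leave-one-out fits (up to 0.29, with B7hi saline 2 left out).

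With HDM, the kinase Jak1 was higher and the factor Irf8 lower in B7hi. Jak1 stood at 2117, 832 and 677 CPM against 389, 429 and 478 CPM (1.49 ± 0.35, edgeR adjusted p = 0.032), a call that 6 of the 10 leave-one-out fits did not keep (up to 0.154, with B7low HDM 1 left out), nor did limma-voom (0.076). Without B7hi HDM 1 its log2 fold change was 0.81 (0.096). Irf8, which B cells and dendritic cells express, had 2 counts in B7hi HDM and stood at 27.1, 28.6 and 10.7 CPM in B7low HDM (edgeR adjusted p = 0.033). The ratio was 37.5-fold (exact 95% counting interval 10.1 to 315). Irf8 lost its call when any 1 HDM library other than B7low HDM 3 was left out (0.061 to 0.143), and with limma-voom (0.053). Spi1, another factor of myeloid and B cells, was at 43.8, 5.87 and 19.9 against 77.3, 67.0 and 64.5 CPM (edgeR adjusted p = 0.12).

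The same comparison called the B cell genes lower in B7hi. Cd79b stood at 1.88, 7.83 and 8.22 CPM in B7hi HDM and 123, 103 and 31.0 CPM in B7low HDM (−3.91 ± 0.69, edgeR adjusted p = 0.0065), and Ms4a1 at 0, 9.79 and 2.06 against 100.3, 77.4 and 36.0 CPM. Cd79a stood at 1.88, 0 and 0.685 against 149, 68.9 and 8.85 CPM. Leaving out B7hi HDM 3 ended the call of Ms4a1 (0.073). That of Cd79a ended when any of B7hi HDM 1, 2 or 3 or B7low saline 1 or 2 was left out (0.093 to 0.16), with limma-voom (0.527) and with only the 2 groups fitted (0.078). That of Cd79b ended with limma-voom (0.058) and without both B7low saline 2 and B7hi HDM 2 (0.066). Without the 4 lymphocyte-rich libraries, which left a single library in B7low HDM, its log2 fold change was −2.82.

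Genes outside the 10 that were most like the mean of the 4 chains over the 10 libraries, with at least 20 CPM on average, included Cd83 (Pearson correlation 0.93), Fkbp1a (0.89), S1pr1 (0.87), Ccr7 (0.87), Cdc23 (0.82), Usf1 (0.81), Cd79b (0.81), Mis12 (0.81) and Gimap4 (0.79). These are descriptions over libraries that also share depth and group. Cd83, a surface protein of activated presenting cells and lymphocytes, stood at 232 and 163 CPM in B7low HDM 1 and 2, 25.6 CPM in B7hi saline 2 and 0 CPM in B7hi saline 1 and B7hi HDM 1. Gimap4, a lymphocyte GTPase, was highest in B7hi saline 2 and B7hi HDM 3, at 62.1 and 61.6 CPM. Among the 10 genes, Ciita had a correlation of 0.67 with the chain mean, Ctss 0.60, H2-DMa 0.51, H2-Oa 0.16 and Cd86 −0.10.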

How the data were processed

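Total RNA of sorted mast cells was made into SmartSeq2 libraries and sequenced as paired reads of 25 bases, per the labels' protocols. The authors deposited raw counts per gene symbol. Build mm10 and the tools Cufflinks 2.2.1, TopHat2 2.0.10 and DESeq2 are listed, without roles, per the submitters' processing notes. How reads were counted, and whether by strand, is not given in the sources used here, so antisense overlaps and near-identical copies are uncertain. Because PCR copies were not told apart by molecular identifiers, intervals and floors cover counting error only. Groups and replicate numbers came from the titles. All 10 libraries were fitted together with edgeR 4.0.16 (TMM scaling, filterByExpr, robust quasi-likelihood test) in R 4.3.3, and p-values were adjusted over 10533 genes by Benjamini-Hochberg at 0.05. Each approximate SE is the size of the log2 fold change divided by √F. Alternatives were limma 3.58.1 (voom), DESeq2 1.42.0, other scaling and filters, a replicate block and left-out libraries. Named genes were all 10, Cd79a, Cd79b and Ms4a1, paralogs of the 10, called genes of the listed pathways with B2m, Irf1, Irf8 and Spi1, and the 10 most alike genes with at least 20 CPM; some results under this rule are not reported here. The genes and lists were chosen with earlier results of these data known. The fit was tested on simulated data.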

Additional observations from a re-analysis of the deposited data

How the results depend on the processing

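Of 1009 log2 fold changes of the 10 genes under alternatives, 926 kept their direction and their side of the threshold. Most of these had no call in the main fit to lose. The 3 saline calls were kept in fewer settings, in 16 of 21 alternatives for H2-Oa, 13 for H2-DMa and 8 for Ctss. Calls among the 10 genes with saline (3) fell to 0 with limma-voom and with only the 2 groups compared. They fell to 1 without both B7low saline 2 and B7hi HDM 2 or both B7hi saline 2 and B7low HDM 1, and ranged from 0 to 3 with 1 library left out. Without a count filter 2 of the 10 genes (H2-DMa and Ctss) passed for HDM against saline in B7low and 2 in the interaction, and with 1 library left out 0 to 1 passed in B7low.

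Over all genes, the 689 calls with saline became 1078 without a filter, 370 with only the 2 groups, 300 without B7hi saline 2 and B7low HDM 1, 181 without the 4 libraries, and 226 to 685 with 1 library left out. The 299 calls with HDM became 507 with DESeq2, 548 without a filter, 126 without B7hi saline 2 and B7low HDM 1, 24 without the 4 libraries, and 137 to 368 with 1 left out. HDM in B7hi (1 call) gave 55 with DESeq2, 11 with limma-voom, 89 without a filter, 0 with 2 groups, 5 and 2 without either pair of libraries, and 0 to 11 with 1 left out. HDM in B7low (1 call) gave 0 with DESeq2 size factors, limma-voom, 2 groups, either pair or the 4 libraries left out, 4 with library size alone, 19 with DESeq2, 112 without a filter, 3 with at least 5 CPM in 2 libraries, and 0 to 13 with 1 left out. The interaction (0 calls) gave 2, 44, 143 and 3 under library size, DESeq2, no filter and 5 CPM, 1 without either pair, and 0 to 3 with 1 left out. Library size alone moved the saline median of all genes from 0.03 to 0.30 and the share of higher calls from 44.4% to 67.9%.

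Directions reversed as follows, and the cause was not tested. With saline, Cd74, H2-Aa, H2-Ab1 and H2-Eb1 were −2.34, −2.12, −2.38 and −2.77 without B7hi saline 2 and B7low HDM 1, and −2.36, −2.12, −2.40 and −2.78 without the 4 libraries. With 1 library left out they ranged from −2.35 to 2.18, −2.12 to 4.61, −2.39 to 3.10 and −2.78 to 3.42. For HDM in B7hi the pair's removal gave 3.11, 3.76, 3.35 and 3.24. The 4 libraries' removal gave 1.59, 0.23 and 1.38 for the first 3 chains. With 1 left out the ranges were −1.95 to 3.12, −4.11 to 3.77, −2.50 to 3.36 and −4.17 to 3.26. There Ctss was −0.12 with library size, −0.0068 without a filter and −0.44 to 0.79 with 1 left out, and H2-DMb1 −0.24 to 0.020. For HDM in B7low, H2-Eb1 was −0.23 without the 4 libraries, and H2-DMb1 −0.30 without B7low saline 2 and B7hi HDM 2 and −0.43 to 5.85 with 1 left out. Ctss between populations with HDM was 0.21 without the 4 libraries. In the interaction Cd74, H2-Ab1 and H2-Eb1 were 0.28, 0.37 and 0.60 without the pair and 0.77, 1.11 and 0.23 without the 4 libraries. H2-Ab1 ranged from −5.82 to 0.013, H2-Eb1 from −7.17 to 0.23, H2-DMb1 from −6.02 to 0.30 (0.060 without the other pair) and Ciita from −0.53 to 2.86 (−0.028 with library size).

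Whether same-numbered libraries were paired could not be decided. Their deviations correlated at 0.04 with saline and at 0.02, −0.11 and −0.05 with HDM. With saline, 2 libraries per group give mirror-image deviations, so only the sign of that value could differ between pairs. With the replicate block 2 of the 10 genes were called with saline (H2-Oa and H2-DMa, with Ctss at edgeR adjusted p = 0.060), 636 of all genes with saline, 6 for HDM in B7hi and 2 in B7low, and the log2 fold change of H2-DMb1 for HDM in B7hi was 0.054. The block also ended the call of Jak1 with HDM (0.053). The choice of the 4 libraries was made after seeing the data. Their removal left a single library in B7hi saline and in B7low HDM, so calls in that fit had less replication to rest on. The interaction involves all groups, so it has no fit of only 2 groups. Depths of 525983 to 1725818 counts limit Ciita, H2-DMb1 and Ctss in B7low with saline most.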
